A study of Homo sapiens with 9 samples.

Results

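The cytosolic ribosome is built from ribosomal RNA and a set of proteins named RPL, of the large subunit, and RPS, of the small subunit. The genes described here are those whose symbol in the platform annotation is RPL or RPS followed by a digit, or RPLP1 or RPLP2, without the RPS6K kinases and without symbols ending in P and digits. Of the 81 symbols that fit, 63 had a probe set annotated to them alone and were measured, out of 19775 genes measured in all. The other 18, among them RPL5, RPL10, RPL13A, RPS2 and RPS3A, share every listed probe set with another gene and have no value here, and RPLP0, RPSA, RPL26 and RPS27A were not analysed here. Of the 63 genes, 39 code for RPL and 22 for RPS proteins or their paralogs, and 2 are noncoding neighbours that carry such a name (RPL26L1-AS1 and RPL34-DT). They lie on 20 chromosomes, with at most 7 on any of them.

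The study silenced enzymes of ceramide synthesis in Huh7, a human hepatocarcinoma cell line, and asks how the transcriptome responds. Of the 9 arrays, 3 are of cells given scramble siRNA, a control without a target; 3 are of cells given siRNA against serine palmitoyltransferase subunits, named SPTLC123 in the labels, the enzyme that starts the pathway; and 3 are of cells given siRNA against DEGS1, the desaturase that ends it. All groups share the parent line, grown in DMEM with serum, and received 20 nM siRNA with a lipid reagent, and the labels call the arrays of a group biological replicates. The labels put harvest at 72 h after transfection, but the protocol has a conditioned medium with little serum put on at 72 h and left for 24 h, so the time is not settled. No group is a clone or a transgenic line, and the knockdown is that of the whole culture.

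Ribosomal protein messenger RNAs are among the most abundant of growing cells. Most start with a C followed by a run of pyrimidines, the terminal oligopyrimidine (TOP) motif, through which mTOR and the RNA-binding protein LARP1 set how well they are translated, so that their output can change with little change in messenger level. Several members have a paralog that replaces them in some tissues or states, and RPL5 and RPL11 bind MDM2 and thereby raise p53 when ribosome assembly fails. An array of this kind measures the messenger level only.

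The start sites show which of these genes carry the motif, and the following windows are shown for the genes on which the values below turn and for paralog pairs. Each window holds 15 bases before the RefSeq transcript start and 15 bases from it (build GRCh38.p14), 5′ to 3′ on the strand of the gene. Capitals mark the pyrimidine run that begins with a C at the start. Where RefSeq gave several starts, the one with the longest run is shown.
RPL34: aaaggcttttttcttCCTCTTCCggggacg
RPL38: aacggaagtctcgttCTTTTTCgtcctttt
RPS6: aagcggaagttggccCTCTTTTCCgtggcg
RPL3: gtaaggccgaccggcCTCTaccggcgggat
RPL22: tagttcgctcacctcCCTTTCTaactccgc
RPL22L1: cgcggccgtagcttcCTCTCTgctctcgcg
RPS27: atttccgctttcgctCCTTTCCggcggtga
RPS27L: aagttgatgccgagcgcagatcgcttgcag
RPL26L1: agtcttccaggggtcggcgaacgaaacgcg
RPL7L1: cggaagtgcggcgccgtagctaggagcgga

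These windows lie at chr4:108620561-108620590 for RPL34, chr17:74203663-74203692 for RPL38 and chr6:42879601-42879630 for RPL7L1, all on the plus strand. Those of RPS6 (chr9:19380222-19380251) and RPL3 (chr22:39319609-39319638) are on the minus strand. The paralogs lie at chr1:6199581-6199610 (RPL22, minus), chr3:170870181-170870210 (RPL22L1, minus), chr1:153990747-153990776 (RPS27, plus), chr15:63157463-63157492 (RPS27L, minus) and chr5:172958714-172958743 (RPL26L1, plus). A TOP start was counted where a C at the start was followed by at least 4 pyrimidines. RPS27 and RPS27L differ in this: RPS27 has a run of 7 pyrimidines and RPS27L has none, whereas RPL22 (7) and RPL22L1 (6) both have a run. RPL3 has a run of 4, 1 base short of the rule, and RPL7L1 and RPL26L1 have none at the starts listed.

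Of the 55 members with a start in the RefSeq table, 36 (65.5%) had a TOP start, against 934 of 15384 genes tested (6.07%). The other 8 members have no entry there. Of 11 further messengers known for a TOP motif, such as EEF1A1 and TPT1, 10 had one by this rule. Mitochondrial ribosomal proteins, which share the function but not the compartment, had one in 5 of 67 (7.46%), and ribosome assembly factors in 3 of 29 (10.3%). The letters CCGGAAG, a core that ETS factors bind, stood on either strand of the 300 bases around the start in 38.2% of the members, 43.3% of the mitochondrial ribosomal proteins, 48.3% of the assembly factors and 16.6% of all genes. A match is a description of these letters and not a bound site.

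Most of the 63 genes gave very bright probe sets. Levels are given as log2 of the deposited intensity, on which the median of all probe sets was 4.86. Of the 63, 51 lay above 12 (12.02 to 14.34; 30 RPL and 21 RPS), and 48 were among the 198 genes above the 99th percentile of all genes. RPL41 (mean 14.34), RPLP1, a protein of the stalk that recruits elongation factors (14.23), and RPS19 (14.21) had the brightest probe sets. Another 5, RPL7L1, RPL22L1, RPL26L1, RPL39L and RPL27A, lay between 7.57 and 10.88. The remaining 7 lay at 5.43 or below, near the level of the median probe set, and include RPL10L, RPL3L, RPL36A, RPLP2 and the noncoding pair, which with RPL36A were the dimmest 3. Brightness depends on the probes as well as the RNA, so a dim probe set such as that of RPLP2, the partner of RPLP1 in the stalk, gives no measure of how much of its messenger the cells hold. Of the probe sets used, 14 carry the suffix x_at and 30 the suffix s_at, Affymetrix's marks for probes that may also match other sequences, and ribosomal proteins have many near-identical pseudogene copies, so the values are those of the probe sets.

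Between arrays of a group these genes varied little. The pooled within-group SD of the 51 bright genes had a median of 0.0708 on the log2 scale (range 0.0274 to 0.148). The median over all genes, most of them dimmer, was 0.140. Whether the low spread is particular to ribosomal proteins or shared by other bright genes was not tested. RPL39L (0.534), RPL22L1 (0.365) and RPL27A (0.303) varied most.

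Checks on the whole series bear on the comparisons. The measured targets were lower in their groups, with log2 differences from scramble of -2.27 for SPTLC1 and -1.05 for SPTLC2 in SPTLC123, and of -3.73 for DEGS1 in DEGS1 siRNA; the remaining subunit in the SPTLC123 name was not analysed here. Of 15 hepatocyte markers, 14 lay above the median probe set, with a mean log2 level of 11.78 to 11.92 in scramble, 11.36 to 11.53 in SPTLC123 and 11.44 to 11.66 in DEGS1. Of 13 markers of other liver cell types, 7 lay above it (mean 5.98 to 6.13 in all arrays), EPCAM and LYZ high among them, while CDH5 of endothelium and PTPRC of leukocytes were not. SPTLC123 replicate 3 and DEGS1 replicates 2 and 3 had weak 5′ signal, with an actin control 3′ minus 5′ log2 difference of 1.15 to 1.31 against 0.40 to 0.56 in the other 6 arrays, and no scramble array was among them. The part of the lower hepatocyte markers and of the 5′ signal in the results was not tested, other than by leaving out these arrays or fitting the control signal. Leaving them out keeps 1 DEGS1 array, too few to judge whether a DEGS1 call depends on the 5′ signal. With the actin difference fitted over all 9 arrays, 13.9% of all genes passed an adjusted p under 0.05 (limma) in SPTLC123. The share was 5.63% in DEGS1 and 10.3% between the knockdowns. In the main fit these shares were 9.94%, 9.7% and 8.66%.

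After SPTLC123 silencing most ribosomal protein probe sets read close to their scramble values. The 51 bright genes had a median log2 difference from scramble of 0.05, between -0.15 for RPS27L and 0.37 for RPL34, and the median of all 63 was 0.04, beside -0.03 over all genes. With the arrays centred on their medians these became 0.11 for the bright genes and 0.10 for all 63, beside 0.03 over all genes, and the bright genes with a value above scramble went from 34 to 43 of 51. RPL34 and RPL7L1 were higher at an adjusted p under 0.05 (limma with Benjamini-Hochberg adjustment over all genes) and none was lower, which makes 2 of 63 where 9.94% of all genes were called (5.31% higher and 4.63% lower). At an unadjusted p under 0.05, 6 of 63 passed beside 22.9% of all genes; all 6 were higher and 0 lower, where 11.2% and 11.7% of all genes were. For 49 of the 51 bright genes the 95% interval of the difference lay within 0.5 on the log2 scale, which is 1.41-fold, and RPL34 and RPL38 were the exceptions. RPL genes (median 0.07) and RPS genes (0.04) had like medians. These probe sets lie near the top of the scale, whose highest value was 14.74 in log2 units, and whether saturation compresses their differences was not tested. Of the 283 other genes with a mean above 12, 8.48% were called in SPTLC123 and 10.2% in DEGS1, with differences from -1.17 to 0.72 and from -0.96 to 0.82. The 15 further probe sets of the bright members with means between 7 and 12 gave other values in some genes, from -0.29 to 0.97 in SPTLC123 (median 0.06) and from -0.40 to 0.35 in DEGS1 (median -0.01). All arrays are scaled to a common level, so a change that all RNA shares would not be seen, and in bulk cultures fewer cells that express a gene and less RNA per cell cannot be told apart.

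**Figure D1:**
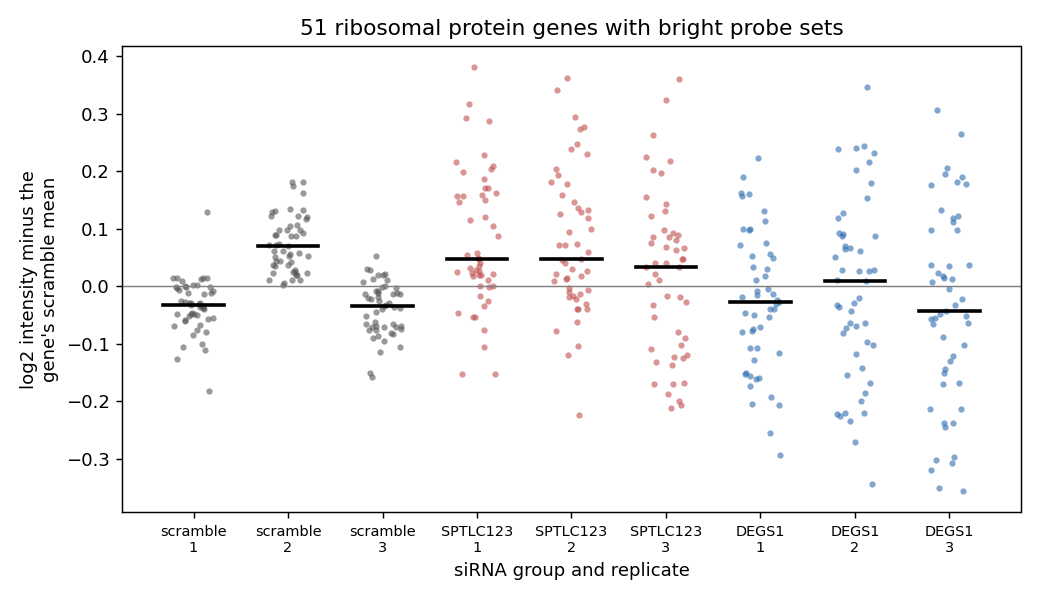
Each point is 1 of the 51 ribosomal protein genes with a bright probe set, plotted for each of the 9 arrays (x axis) as its log2 intensity minus the mean of that gene over the scramble arrays (y axis); black bars are the medians over genes. The medians lie between -0.04 and 0.07 in all arrays, and the points spread more widely in the SPTLC123 and DEGS1 arrays than in the scramble arrays, from whose own mean the deviations are taken.

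After DEGS1 silencing the bright genes had a median log2 difference from scramble of -0.02, from -0.30 for RPL3, a large subunit protein near the peptidyl transferase centre, to 0.27 for RPL38. The median of all 63 was -0.02 as well, and that over all genes was -0.01. Only RPL7L1 was called, higher, which is 1 of 63 beside 9.7% of all genes (4.66% higher and 5.04% lower; limma with Benjamini-Hochberg adjustment). At an unadjusted p under 0.05, 16 of 63 passed beside 24.7% of all genes; 7 were higher and 9 lower, shares of 11.1% and 14.3% that lie near the 11.7% and 12.9% of all genes. The 95% interval lay within 0.5 for all 51 bright genes. RPL genes had a median of -0.02 and RPS genes of -0.05. The comparison uses the same 3 scramble arrays as the one for SPTLC123, so the 2 sets of differences are not independent.

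**Figure D2:**
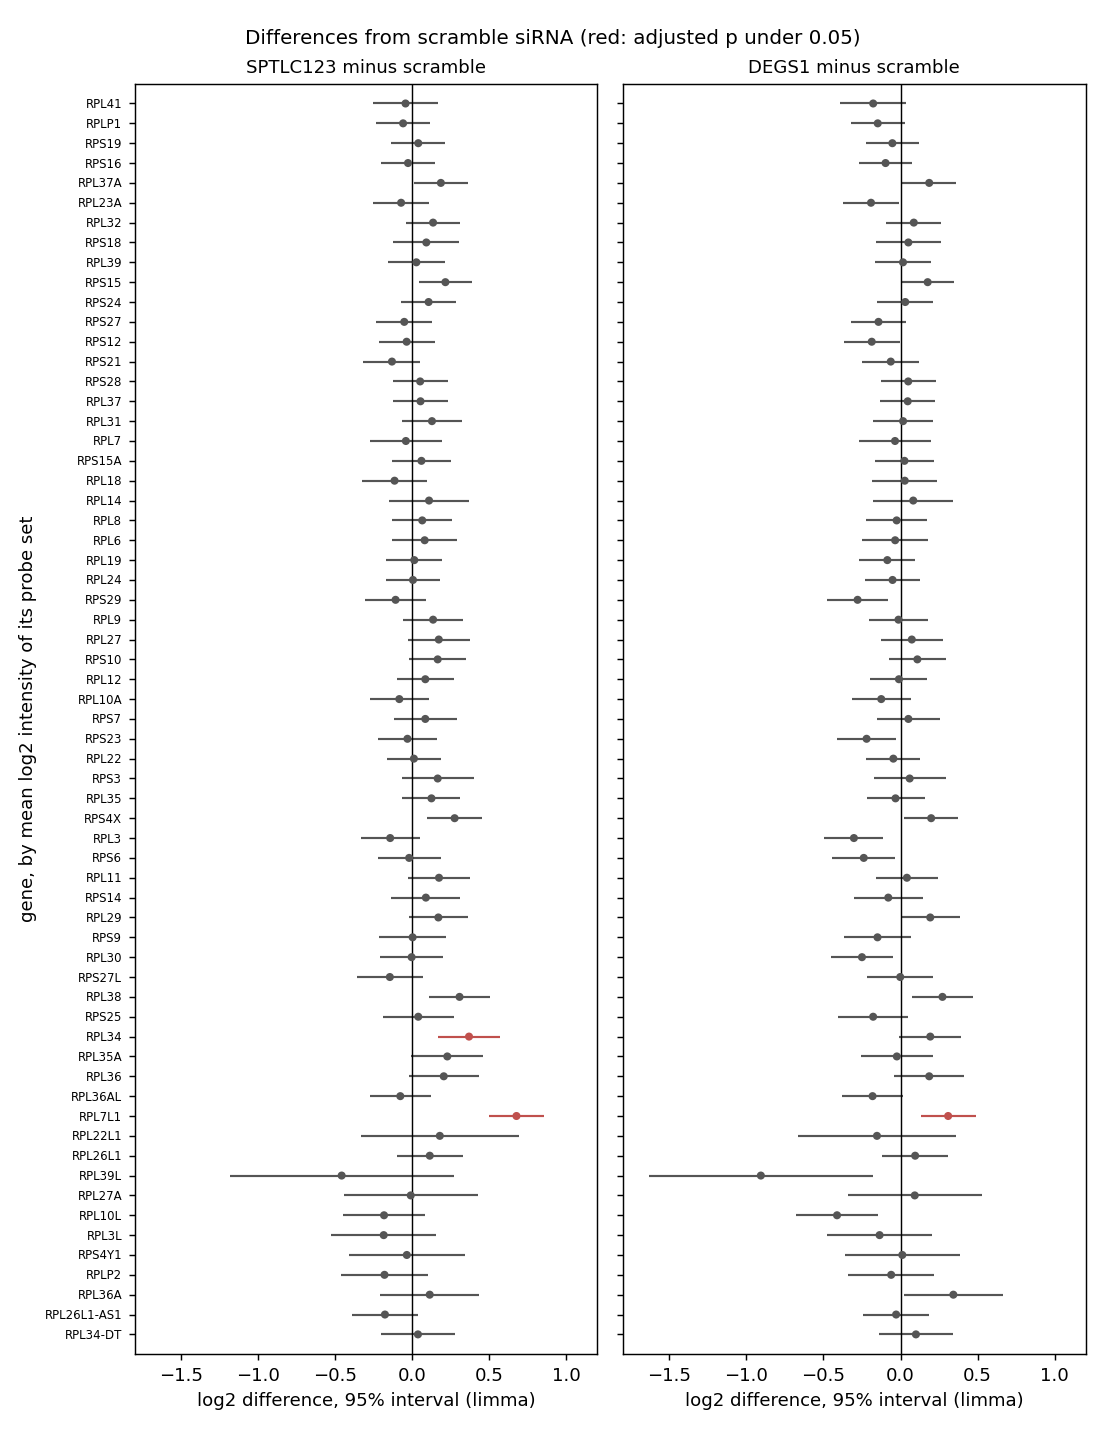
Log2 difference from scramble (point) with its 95% interval from limma (line) for each of the 63 genes, ordered on the y axis by the mean intensity of the probe set, for SPTLC123 siRNA (left) and DEGS1 siRNA (right); red marks an adjusted p under 0.05. RPL7L1 and RPL34 are red on the left and RPL7L1 on the right; the interval of RPL39L is the widest on both sides.

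Set directly against each other, DEGS1 siRNA gave lower values than SPTLC123 siRNA in 45 of the 51 bright genes, with a median log2 difference of -0.09 and a range of -0.25 (RPL35A) to 0.14 (RPS27L). Other bright genes were also lower, in a smaller share: the 1972 brightest genes that are not members had a median of -0.08, and 62.5% were lower. The 283 other genes with a mean above 12 had a median of -0.04. With each array centred on the 1972 genes the median of the 51 became -0.01, with 24 higher and 27 lower. In that setting the median of DEGS1 against scramble turned from -0.02 to 0.05. With quantile normalization the 51 had a median of -0.065 and 40 were lower, beside -0.009 and 51.5% for the 1972. With median centring 48 were lower, beside 67.9% of the 1972. Without the arrays of weak 5′ signal, where DEGS1 has 1 array, the medians were -0.11 and -0.04. Only RPL7L1 was called in this comparison, lower in DEGS1, 1 of 63 beside 8.66% of all genes (3.7% higher and 4.96% lower). At an unadjusted p under 0.05, 4 of 63 passed beside 22.7% of all genes; 0 were higher and 4 lower (10.8% and 11.9% of all genes), namely RPL7L1, RPS6, RPL30 and RPL35A.

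RPL7L1, a paralog of RPL7 related to a yeast assembly factor of the large subunit, had the smallest adjusted p of the members in all 3 comparisons. Its log2 intensity was 10.62, 10.56 and 10.47 in the scramble arrays, 11.22, 11.21 and 11.24 in SPTLC123 and 10.86, 10.85 and 10.86 in DEGS1. The groups did not overlap in any pair, with DEGS1 between scramble and SPTLC123. It rose by 0.68 ± 0.08 (SE, n = 3 arrays a group; 1.6-fold) in SPTLC123 with an adjusted p of 0.000446 in limma, and by 0.31 ± 0.08 (1.24-fold) in DEGS1 with an adjusted p of 0.0368. The difference of DEGS1 from SPTLC123 was -0.37 ± 0.08 (adjusted p = 0.0176, limma). The SPTLC123 call held in all 22 alternative settings (0.64 to 0.74). The DEGS1 call held in 9 of 22, with differences of 0.27 to 0.38 and an adjusted p up to 0.332, and without the arrays of weak 5′ signal, where DEGS1 has 1 array, the difference was 0.31. The difference between the knockdowns was called in 14 of 22 (-0.41 to -0.28). The annotation lists 1 probe set for this gene, so no second one could be compared. It carries the suffix x_at, so it may also match other sequences. Its parent RPL7, a large subunit protein, differed by -0.04 ± 0.11 in SPTLC123 and -0.04 ± 0.11 in DEGS1.

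RPL34, a large subunit protein with a TOP start, had a log2 intensity of 12.44, 12.65 and 12.38 in scramble, 12.87, 12.85 and 12.85 in SPTLC123 and 12.71, 12.67 and 12.67 in DEGS1. The SPTLC123 arrays were all above both other groups. It rose by 0.37 ± 0.09 in SPTLC123 (1.29-fold; adjusted p = 0.0281, limma) and differed by 0.19 ± 0.09 in DEGS1 (adjusted p = 0.227). The SPTLC123 call was lost in 9 of 22 alternatives, with differences from 0.31 to 0.45, and in 5 of these 1 array was left out: scramble replicate 1 (adjusted p = 0.0895) or 3 (0.103), or SPTLC123 replicate 1 (0.0886), 2 (0.0703) or 3 (0.0687). The other 4 were every probe set tested on its own, only the groups compared, an adjusted p under 0.01, and without the arrays of weak 5′ signal.

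**Figure D3:**
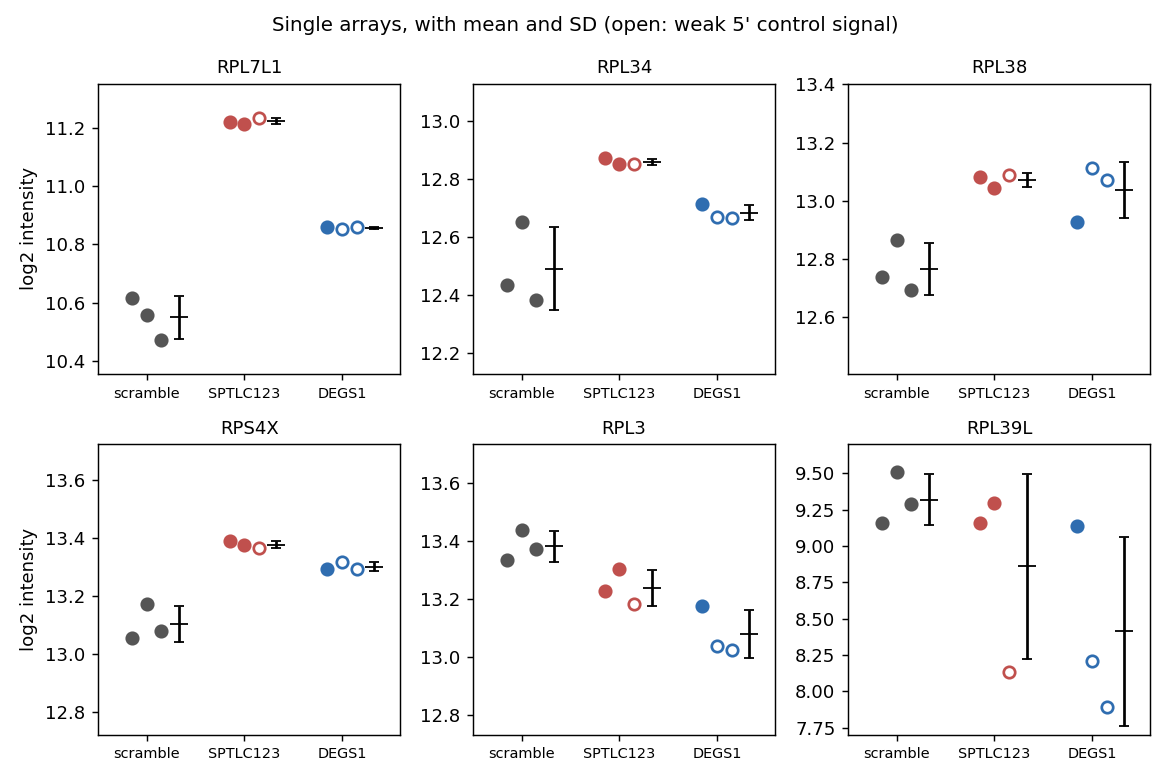
Log2 intensity of 6 ribosomal protein genes in single arrays (points), by siRNA group, with the mean and SD over 3 arrays beside them; open points are the 3 arrays with weak 5′ control signal, and the y axis spans 1 log2 unit except for RPL39L, where it spans 2. RPL7L1 separates all 3 groups, whereas RPL39L is low in the 3 open points and between 9.14 and 9.51 in the other arrays.

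RPS4X and RPL38 lay next to the threshold. RPS4X, the X-linked form of a small subunit protein, had log2 intensities of 13.05, 13.17 and 13.08 in scramble, 13.39, 13.38 and 13.37 in SPTLC123 and 13.29, 13.32 and 13.29 in DEGS1. Its groups did not overlap, with SPTLC123 highest. The differences from scramble were 0.27 ± 0.08 (adjusted p = 0.0542) and 0.20 ± 0.08 (adjusted p = 0.152) in limma, and its second probe set gave 0.29 and 0.27. Both probe sets carry the suffix x_at and may match the same other sequences. RPL38, a large subunit protein linked to the translation of Hox messengers in mice, had 12.74, 12.86 and 12.69 in scramble, 13.08, 13.04 and 13.09 in SPTLC123 and 12.93, 13.11 and 13.07 in DEGS1. Both knockdown groups lay above scramble and overlapped each other. The differences were 0.31 ± 0.09 (adjusted p = 0.0552, limma) and 0.27 ± 0.09 (adjusted p = 0.0837), but its other 2 probe sets, both dimmer, gave -0.02 and -0.05 in SPTLC123 and 0.35 and 0.34 in DEGS1. The 0.27 of DEGS1 became 0.20 with the actin difference as a covariate. Without the arrays of weak 5′ signal, where DEGS1 has 1 array, it was 0.16.

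RPL3 lay on the other side. It had 13.33, 13.44 and 13.37 in scramble, 13.23, 13.30 and 13.18 in SPTLC123 and 13.18, 13.04 and 13.03 in DEGS1. Scramble was above both knockdowns and DEGS1 below SPTLC123 with no overlap. The difference was -0.14 ± 0.09 in SPTLC123 and -0.30 ± 0.09 in DEGS1 (adjusted p = 0.0516, limma), and it was called in 5 of 22 alternatives for DEGS1. In DEGS1 it was -0.23 with the actin difference as a covariate. Without the arrays of weak 5′ signal, where DEGS1 has 1 array, it was -0.21. Its paralog RPL3L, which is used in muscle, gave a dim probe set (mean 4.86) and differences of -0.19 ± 0.15 and -0.14 ± 0.15.

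Among small subunit proteins, RPS6, the substrate of the S6 kinases downstream of mTOR, had 13.26, 13.45 and 13.25 in scramble, 13.35, 13.35 and 13.20 in SPTLC123 and 13.13, 13.09 and 13.02 in DEGS1. The DEGS1 arrays were below all others, while scramble and SPTLC123 overlapped. Its differences were -0.02 ± 0.09 in SPTLC123 and -0.24 ± 0.09 in DEGS1 (adjusted p = 0.138, limma). RPS29, a zinc-binding protein of the small subunit, differed by -0.11 ± 0.09 and -0.28 ± 0.09 (adjusted p = 0.0762 in DEGS1, limma). RPL30 of the large subunit gave in DEGS1 -0.25 ± 0.09 against scramble and -0.25 ± 0.09 against SPTLC123, neither past the threshold (adjusted p = 0.117 and 0.135, limma).

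RPL11, which binds MDM2, had 13.05, 13.25 and 13.18 in scramble, 13.35, 13.41 and 13.24 in SPTLC123 and 13.26, 13.17 and 13.18 in DEGS1. All groups overlapped, by a narrow margin for scramble and SPTLC123, and the differences were 0.17 ± 0.09 and 0.04 ± 0.09. Of the stalk proteins, RPLP1 differed by -0.06 ± 0.08 in SPTLC123 and -0.15 ± 0.08 in DEGS1, and RPLP2, read from its dim probe set, by -0.18 ± 0.13 and -0.06 ± 0.13. RPL9 differed by 0.13 ± 0.09 and -0.01 ± 0.09.

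Of the paralogs, only RPL7L1 was called in any comparison. RPL22 was nearly level, at 13.31 to 13.33 in scramble, 13.32 to 13.34 in SPTLC123 and 13.21 to 13.32 in DEGS1, whereas RPL22L1, which takes its place when RPL22 is lost, ranged from 9.80 to 10.66 within scramble alone. The differences were 0.01 ± 0.08 and -0.05 ± 0.08 for RPL22, and 0.18 ± 0.23 and -0.15 ± 0.23 for RPL22L1. RPS27 differed by -0.05 ± 0.08 and -0.14 ± 0.08. RPS27L, its paralog and a p53 target gene, differed by -0.15 ± 0.10 and -0.002 ± 0.10. RPL26L1 (0.11 ± 0.10 and 0.09 ± 0.10) and RPL36AL (-0.08 ± 0.09 and -0.18 ± 0.09) were not called, nor was RPL36A (0.11 ± 0.15 and 0.34 ± 0.15). RPL10L, a testis paralog of RPL10, was dim, at 5.51, 5.85 and 5.51 in scramble and 5.04, 5.26 and 5.34 in DEGS1, a difference of -0.41 ± 0.12 with an adjusted p of 0.0537 in limma.

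RPL39L, a paralog of RPL39 best known from testis and tumours, varied with the 5′ control signal of the arrays. It had 9.16, 9.51 and 9.29 in scramble, 9.16, 9.29 and 8.13 in SPTLC123 and 9.14, 8.21 and 7.89 in DEGS1. The low values are those of the 3 arrays with weak 5′ signal (7.89 to 8.21), and the other 6 arrays lay between 9.14 and 9.51. The difference was -0.46 ± 0.33 in SPTLC123 and -0.91 ± 0.33 in DEGS1 (adjusted p = 0.114, limma). Without these 3 arrays it was -0.09 and -0.18, and with the actin difference as a covariate -0.19 and -0.25. RPL39 itself differed by 0.03 ± 0.08 and 0.02 ± 0.08. In all, 12 members did not overlap between these 3 arrays and the other 6. RPL14, RPL36A, RPL37A and RPS28 were higher in them, 4 of 63 where 6.88% of all genes were. RPL10A, RPL23A, RPL36AL, RPL39L, RPL41, RPL7, RPLP1 and RPS9 were lower, 8 of 63 where 7.74% of all genes were.

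Groups that do not overlap were counted as a further description. Against scramble, SPTLC123 lay wholly above in 12 members (19% of the 63, beside 13.5% of all genes) and below in 4 (6.35% beside 15.4%). DEGS1 lay above in 10 (15.9% beside 12.6%) and below in 15 (23.8% beside 13.7%). DEGS1 lay wholly above SPTLC123 in 2 members, RPL18 and RPS27L, and below in 20, or 3.17% and 31.7% of the 63 beside 13.1% and 12.4% of all genes. Bright genes that are not members were also lower in this comparison, as given above, and their part in the count was not tested.

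Other probe sets of the members were examined because 34 of the 63 genes have more than 1 (124 in all). With each probe set tested on its own in limma, 2 of the 124 were called higher and 0 lower in SPTLC123, 0 in either direction in DEGS1, and 3 lower in DEGS1 against SPTLC123, beside 4.52%, 3.42% and 3.69% of all probe sets. Beside the one of RPL7L1, the called ones were dimmer further probe sets. That of RPS15A (mean log2 7.86) differed by 0.97 ± 0.12 in SPTLC123 (adjusted p = 0.00316, limma), while its main probe set (mean 13.67) differed by 0.06. That of RPL35A (mean 5.92) gave a difference of -0.88 ± 0.17 between DEGS1 and SPTLC123 (adjusted p = 0.028, limma). These 2 were named after their values were seen, and which transcripts they read was not tested.

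Genes that make or use the ribosome were set beside its proteins, each list described by its counts. Over all genes the shares called were 5.31% higher and 4.63% lower in SPTLC123, and 4.66% and 5.04% in DEGS1. For DEGS1 against SPTLC123 they were 3.7% and 4.96%. At an unadjusted p under 0.05 (limma) they were 11.2% and 11.7%, 11.7% and 12.9%, and 10.8% and 11.9% in that order. Of 37 measured ribosome assembly factors, 7 rose and 0 fell in SPTLC123 (15 and 0 at an unadjusted p under 0.05), with a median log2 difference of 0.22. They were RRS1 (0.68 ± 0.12, adjusted p = 0.00455), GRWD1 (0.63 ± 0.13, adjusted p = 0.0119), RRP9, UTP4, LTV1, BRIX1 and DDX21, a nucleolar helicase (0.42 ± 0.11, adjusted p = 0.0371; limma for all). Without the arrays of weak 5′ signal 5 were called, LTV1 and DDX21 not among them, and over 22 alternatives the count was 2 to 9 higher and 0 lower. In DEGS1, 2 rose and 3 fell (median -0.08): RRS1 (0.77 ± 0.12) and GRWD1 (0.50 ± 0.13) were higher, and NHP2 (-0.46 ± 0.10), WDR12 (-0.51 ± 0.12) and NOC3L (-0.51 ± 0.14) lower. With the actin difference as a covariate the list had 2 higher and 0 lower in DEGS1 (median -0.02). Without the arrays of weak 5′ signal, where DEGS1 has 1 array, the median was -0.06. Between the knockdowns 0 were higher and 7 lower in DEGS1, with a median of -0.24. At an unadjusted p under 0.05 these counts were 0 and 18. BRIX1 led the 7 (-0.61 ± 0.11, adjusted p = 0.00597, limma). With the actin covariate 10 were lower (median -0.26), and without the arrays of weak 5′ signal the median was -0.30.

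RRS1, which brings the 5S particle with RPL5 and RPL11 into the large subunit, was called in both knockdowns. It had 10.11, 9.64 and 10.03 in scramble, 10.66, 10.53 and 10.64 in SPTLC123 and 10.65, 10.73 and 10.70 in DEGS1. Both knockdown groups lay above scramble. BRIX1, a factor of large subunit assembly, had 8.34, 8.22 and 8.38 in scramble, 8.80, 8.67 and 8.75 in SPTLC123 and 7.93, 8.31 and 8.15 in DEGS1. SPTLC123 was above both other groups, and DEGS1 and scramble overlapped.

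RNA polymerase I, which transcribes the ribosomal RNA genes, had 15 subunits and factors measured. Its catalytic subunit POLR1A rose by 0.60 ± 0.14 in SPTLC123 (adjusted p = 0.0175, limma), the only one called there, and POLR1H (-0.47 ± 0.11) and POLR1C (-0.52 ± 0.14) fell in DEGS1. DEGS1 was below SPTLC123 in 5: POLR1F, RRN3, POLR1C, TAF1B and POLR1B. The SPTLC123 call of POLR1A did not hold without the arrays of weak 5′ signal. With the actin covariate 2 were higher in SPTLC123, 0 were called in DEGS1 and 6 were lower in DEGS1 against SPTLC123. The median between the knockdowns was -0.19 in the main fit and -0.26 with the covariate. It was -0.26 as well without those arrays, where DEGS1 has 1 array.

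**Figure D4:**
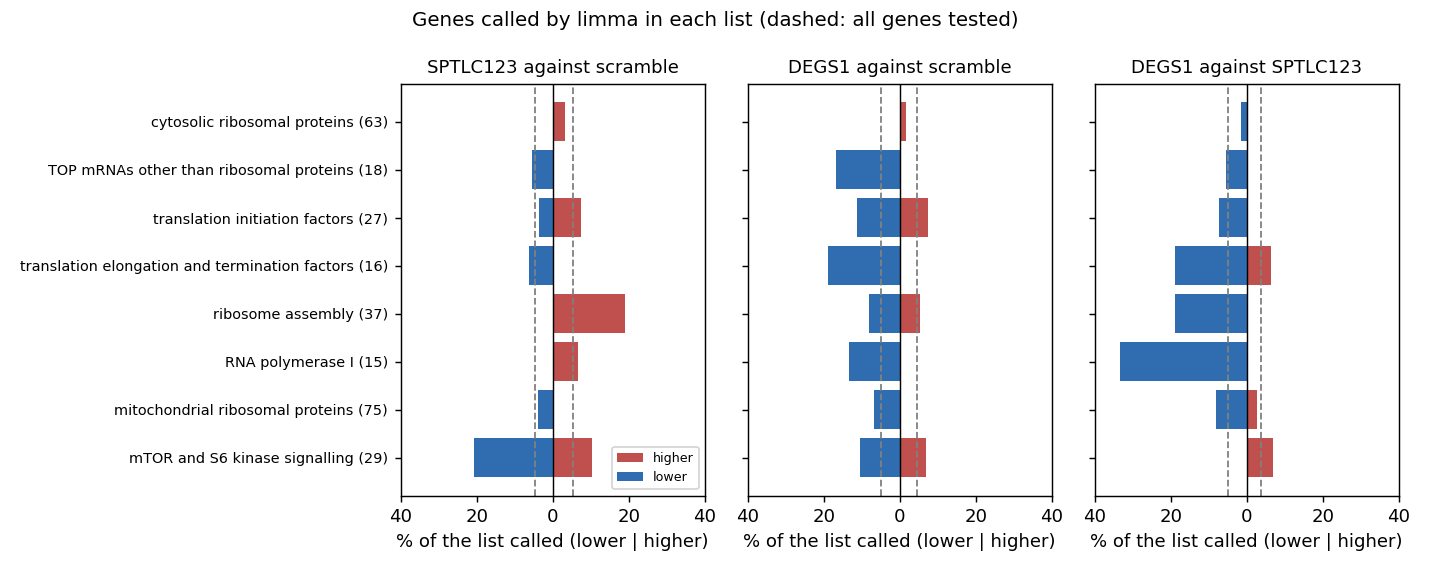
Share of each gene list called higher (red, to the right) or lower (blue, to the left) at an adjusted p under 0.05 in limma, in % of the genes measured (number in brackets), for the 3 comparisons; dashed lines are the shares over all genes tested. The bars of the cytosolic ribosomal proteins end short of the dashed lines in all 3 panels, and those of ribosome assembly pass them to the right for SPTLC123 against scramble and to the left for DEGS1 against SPTLC123.

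Of 18 further messengers of the TOP class, 0 rose and 1 fell in SPTLC123 (0 and 3 at an unadjusted p under 0.05), IMPDH2 of guanine nucleotide synthesis, with a difference of -0.45 ± 0.09. In DEGS1, 0 rose and 3 fell (1 and 6 unadjusted), with a median of -0.15 over the list. The 3 were the initiation factor subunits EIF3F (-0.70 ± 0.16), EIF3K (-0.49 ± 0.12) and EIF2S3 (-0.40 ± 0.10). With the actin covariate 0 were called in DEGS1 (median -0.17). Without the arrays of weak 5′ signal, where DEGS1 has 1 array, the median was -0.13. EIF3E was lower in DEGS1 than in SPTLC123 (-0.39 ± 0.09), the only call of the list there, and with the actin covariate 2 were lower.

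Of 27 initiation factors outside that class, 2 rose and 1 fell in SPTLC123, and 2 rose and 3 fell in DEGS1. EIF3B, the scaffold of the EIF3 complex, rose by 0.81 ± 0.13 in SPTLC123 and 0.86 ± 0.13 in DEGS1, and EIF5B, which joins the subunits, by 0.74 ± 0.18 and 0.76 ± 0.18. EIF3J changed by -0.58 ± 0.14 and -0.60 ± 0.14. EIF2S2 and EIF1B also fell in DEGS1, and EIF4E and EIF2B3 were lower in DEGS1 than in SPTLC123. The SPTLC123 calls of these genes held without the arrays of weak 5′ signal. With the actin covariate 1 of the list was higher and 0 lower in DEGS1 against scramble. Between the knockdowns 0 were then higher and 3 lower in DEGS1.

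Of 16 elongation and termination factors, GSPT1, the release factor eRF3, changed by -0.94 ± 0.10 in SPTLC123 (adjusted p = 0.000163, limma) and differed by -0.13 in DEGS1. The hypusine-containing EIF5A2 (-1.17 ± 0.13), HBS1L, which rescues stalled ribosomes (-1.24 ± 0.19), and SECISBP2 (-0.55 ± 0.11) fell in DEGS1. Between the knockdowns GSPT1 was higher in DEGS1 and these 3 lower. With the actin covariate 0 of the list were higher and 3 lower in DEGS1 against scramble, with a median of -0.14 beside -0.22 in the main fit.

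Of 29 genes of mTOR and S6 kinase signalling, 3 rose and 6 fell in SPTLC123, and 2 and 3 of these without the arrays of weak 5′ signal, which are the 5 named here with SPTLC123 calls. EIF4EBP2, a repressor of cap-dependent initiation, changed by -1.02 ± 0.10 and differed by 0.04 in DEGS1, a difference between the knockdowns of 1.06 ± 0.10 (adjusted p = 9.16e-05, limma). RRAGD, a Rag GTPase of the lysosome, changed by -1.31 ± 0.13 in SPTLC123 and -0.57 ± 0.13 in DEGS1. RPS6KB1, the kinase of RPS6, changed by -0.58 ± 0.11 and -0.41 ± 0.11. SESN3, an inhibitor of mTORC1, rose by 0.75 ± 0.10 and 0.61 ± 0.10, and RPTOR, a subunit of mTORC1, by 0.64 ± 0.14 and 0.60 ± 0.14. EIF4EBP1 fell in DEGS1 (-0.81 ± 0.19). In DEGS1 2 of the list were higher and 3 lower in the main fit, and 2 and 0 with the actin covariate. The calls of the main fit were 31% of the list in SPTLC123 and 17.2% in DEGS1, beside 9.94% and 9.7% of all genes. Between the knockdowns they were 6.9% beside 8.66%. Kinase activity and translation are not read by these arrays.

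Of 9 genes of ribosome stress and p53, PMAIP1 changed by -1.85 ± 0.24 in SPTLC123 and -1.09 ± 0.24 in DEGS1, and ZMAT3 by -1.22 ± 0.18 and -0.81 ± 0.18. None rose in either at the adjusted threshold of limma, and 2 in SPTLC123 and 0 in DEGS1 were higher at an unadjusted p under 0.05. GDF15 and CDKN1A were lower in DEGS1 than in SPTLC123 (-1.25 ± 0.22 and -0.61 ± 0.15). Without the arrays of weak 5′ signal the 2 calls of SPTLC123 held. CDKN1A was then also called higher in SPTLC123 (0.58, adjusted p = 0.0482, limma, beside 0.43 with all arrays). With the actin covariate 0 were higher and 1 lower in DEGS1, and 0 and 4 in DEGS1 against SPTLC123.

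The mitochondrial ribosome, whose proteins are coded in the nucleus by separate genes, had 75 genes measured. In SPTLC123 0 rose and 3 fell (8 and 7 at an unadjusted p under 0.05, limma), MRPL47 (-0.67 ± 0.09), MRPL18 (-0.47 ± 0.10) and MRPS21 (-0.46 ± 0.11), with a median of -0.05. Without the arrays of weak 5′ signal 4 were higher and 3 lower with a median of 0.06, and with the actin covariate 6 and 4 with a median of 0.05, so the sign of the median depends on these arrays. In DEGS1 0 rose and 5 fell, MRPL58 among them (-0.51 ± 0.11), with a median of -0.18. The 5 are 6.67% of the 75, where 5.04% of all genes were lower. At an unadjusted p under 0.05 (limma) 2 were higher and 27 lower, where 11.7% and 12.9% of all genes were. With the actin covariate 0 were called in DEGS1 (median -0.07). Without the arrays of weak 5′ signal, where DEGS1 has 1 array, the median was -0.07 as well. Between the knockdowns 2 were higher, MRPL47 and MRPL18, and 6 lower in DEGS1. Over 22 alternatives the count of lower genes was 0 to 28 in DEGS1 against scramble and 0 to 27 between the knockdowns. The share of all genes called, in either direction, moved with the setting too, up to 21.6% and 20.2% with array weights. Whether the cytosolic and mitochondrial proteins differ in their response was not tested.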

How the data were processed

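The table the authors deposited gives every probe set an intensity in each array, already normalized and not in logs. Per the submitters' processing notes, RMA, GCRMA 2.12.1 and limma 2.14.7 were used, with no role given, so which method made the values is not known. Near background, differences may be compressed. Values of 54613 probe sets (62 controls left out) ran from 4.88 to 27330.59 over all 54675, and were log2-transformed with no pseudocount. Array medians lay between 27.82 and 29.93. Arrays have no read depth, so their number limits the precision. No 2 arrays were identical.

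Each of 19775 genes was read from the probe set annotated to it alone with the highest mean log2. Of the probe sets, 41091 had 1 gene, 1801 several and 11721 were not listed. All 63 members matched RefSeq by gene number. A model with a mean for every group was fitted over the 9 arrays in limma 3.58.1 (lmFit, eBayes, two-sided; R 4.3.3, statmod 1.5.0), with Benjamini-Hochberg adjustment over all genes and calls at an adjusted p under 0.05. Errors after ± are SE of that fit. The fit was tested on simulated data.

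The members and lists were chosen with earlier results of these data known. The genes named were called members, stalk proteins, RPL11, RPS6, paralog pairs, RPL9, RPS4X, the brightest and dimmest 3, and up to 4 called genes of each other list by adjusted p in each comparison. RPL38, RPL30, RPS29, RPL35A, other assembly factors and the limits of 12 and 7 for bright and dim were chosen after seeing the data. Alternatives were other probe-set rules, filters, scalings, variance models, thresholds, array weights, the replicate number as a block, the 3′ to 5′ control signal, and leaving out arrays.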

Additional observations from a re-analysis of the deposited data

Results flagged for a closer look

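RPL7L1 differed between the knockdowns themselves, by -0.37 on the log2 scale for DEGS1 minus SPTLC123 (adjusted p = 0.0176 in limma over all 9 arrays), with all 3 DEGS1 arrays below all 3 SPTLC123 arrays and above all 3 scramble arrays. No explanation of this difference was tested.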

How the results depend on the processing

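The counts of members called were small (2 and 1 for SPTLC123 and DEGS1 against scramble, and 1 between the knockdowns) and moved with the setting. In that order they were 1, 0 and 1 with every probe set as a feature, 4, 3 and 1 with genes above the median only, 3, 2 and 0 with quantile normalization, 5, 1 and 1 with median centring, 2, 2 and 0 with centring on the brightest other genes, and 6, 5 and 1 with a trend and robust eBayes. They were 3, 2 and 1 with the mean of probe sets, 1, 0 and 1 with only the 2 groups compared, 4, 6 and 4 with array weights, 1, 0 and 0 at an adjusted p under 0.01, and 1, 0 and 0 without the 3 arrays of weak 5′ signal. With the actin covariate they were 3, 1 and 1, but the DEGS1 call was RPL10L, lower, in place of RPL7L1. Leaving out single arrays gave 1 to 3, 0 to 5 and 0 to 1. Of these, the highest count for DEGS1, 5 of 63, came without DEGS1 replicate 1, the array of that group with full 5′ signal. The genome-wide share for DEGS1 then rose too, to 18.3% from 9.7% in the main fit. Over all genes, the shares called were 12.9%, 21.6% and 20.2% with array weights. They were 20.5%, 21.4% and 18.1% with genes above the median only, where 56 members were tested. With every probe set as a feature they were 6.42%, 5.16% and 5.37%, and with the mean of probe sets 7.55%, 6.77% and 6.81%. At an adjusted p under 0.01 they were 4.47%, 3.5% and 3.63%, and with only the 2 groups compared 9.62%, 7.57% and 6.81%. With median centring they were 11.1%, 9.71% and 9.3%, and with the actin covariate 13.9%, 5.63% and 10.3%. With quantile normalization, centring on the brightest other genes, or a trend and robust eBayes they were 8.54% to 10.5%. RPL7L1 was called in SPTLC123 in all of these settings. The median difference of the members moved from -0.02 to 0.046 (DEGS1 against scramble) and from -0.08 to 0.00082 (DEGS1 against SPTLC123) with that centring on bright genes, that of SPTLC123 from 0.04 to 0.10 with median centring, and with single arrays left out it was 0.02 to 0.08, -0.046 to 0.026 and -0.10 to -0.07. The causes were not tested.

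Over all genes, 53.5% of calls were higher in SPTLC123 against scramble and 67.5% with median centring; 48.1% in DEGS1 against scramble and 62.3% with centring on bright genes; and 42.7% in DEGS1 against SPTLC123, 33.8% and 60.9% with these 2.

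With the replicate number as a block, 2, 0 and 1 members were called, beside 10.4%, 11% and 9.11% of all genes. RPL7L1 in DEGS1 then had an adjusted p of 0.0539 in limma. The labels do not say whether the numbers pair the samples. Of 9 pairs of arrays with the same number, 3 had deviations that correlated over 0.1 (range -0.28 to 0.54). With 3 arrays a group these correlations cannot settle a pairing.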
